A study of Mus musculus with 2 samples.

Results

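The forkhead (Fox) transcription factors were described in Nestin+ stromal cells, labelled mesenchymal stem cells, that were cultured from bone marrow or heart of mouse pups. Every gene whose name is Fox followed by 1 letter and a number was taken, which gave 44 genes in 19 lettered subfamilies among 49492 gene symbols. Both cultures came from C57BL/6 mice 7 days old that carry the Nestin-GFP transgene, a green fluorescent reporter driven by the gene of the intermediate filament protein nestin, and both were used at passage 10. The heart cells were grown with 20 ng/ml EGF, 20 ng/ml bFGF and 4 ng/ml cardiotrophin-1 in a mixed DMEM/F12 and IMDM medium with N2 and B27 supplements. For the bone marrow cells a different medium was used, and its effect cannot be told apart from that of the tissue. With 1 library from each tissue, none of the differences has a replicate check, and whether animals were pooled is not given in the sources used here.

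Forkhead proteins bind DNA through a winged-helix domain that they share, and the letter of a gene names its subfamily by the sequence of that domain. FoxO factors restrain growth and are kept out of the nucleus by insulin signalling, FoxM1 drives genes of mitosis, and FoxC and FoxF factors pattern mesoderm, the latter downstream of Hedgehog signals. FoxA factors open chromatin in endoderm, FoxP3 defines regulatory T cells and FoxJ1 directs motile cilia.

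Levels are RPKM, in which reads are divided by gene model length and library depth, so they can be compared between genes. The depth, worked back from these values, was 53999963 reads (bone marrow) and 64872683 reads (heart). Of 8 stromal markers all reached 1 RPKM in at least 1 library. Thy1 and Eng fell short of it on the bone marrow side, with 0.0603 and 0.576 RPKM against 16.7 and 33.9 (heart). Nt5e fell short of it on the heart side, with 0.225 RPKM against 1.59 (bone marrow). In all, 36 of 39 markers of 9 other cell types stayed under 1 RPKM on both sides, and the highest of the rest was the leukocyte gene Cd53 at 4.80 RPKM in heart. The pan-leukocyte gene Ptprc stood at 0.00469 RPKM in bone marrow and was listed at 0 in heart.

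Of the family, 25 members stayed under 1 RPKM in both libraries, and most of the rest reached it in both. Of the 44 genes, 19 reached 1 RPKM in either library, 18 were detected below that level and 7 were listed at 0 in both. All 19 reached 1 RPKM in bone marrow and 17 did so in heart, the exceptions being Foxf1 and Foxq1. Among all 49492 symbols, noncoding genes included, 11355 reached 1 RPKM in either library, 10607 in bone marrow and 10641 in heart. The levels of all members summed to 198.5 RPKM (bone marrow) against 159.3 (heart). Behind the 19 genes stood 233 to 7214 reads in bone marrow and 23 to 9805 in heart.

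**Figure D1:**
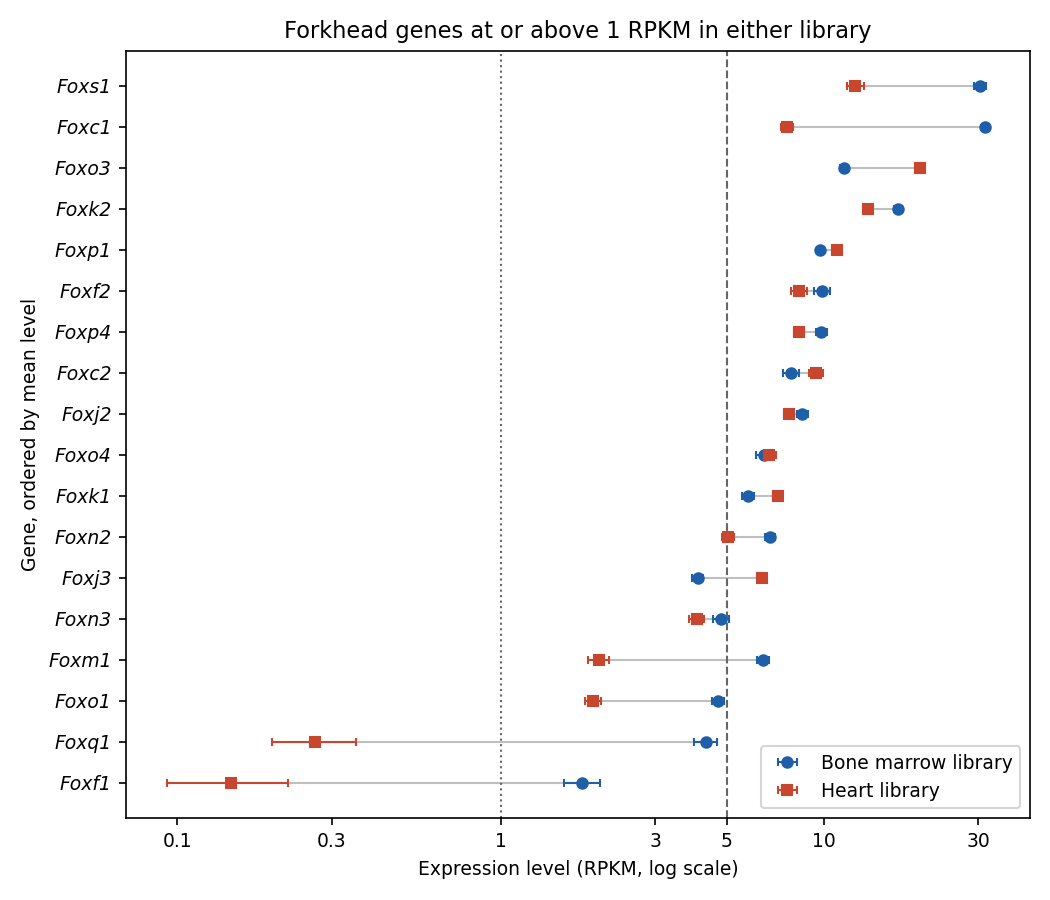
Expression level (RPKM, log scale) of 18 of the 19 forkhead genes at or above 1 RPKM in either library, ordered by mean level, with bone marrow as circles and heart as squares (1 library each). Error bars are exact 95% Poisson intervals of the reads (counting error only), and vertical lines mark 1 and 5 RPKM. Foxc1, Foxs1, Foxm1, Foxo1, Foxq1 and Foxf1 lie well to the left in heart, and Foxo3 and Foxj3 to the right.

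Differences are log2((heart + 1)/(bone marrow + 1)) on RPKM, and a gene was counted as higher in a library if this reached 1 in either direction with 5 RPKM or more on the higher side. By this rule Foxc1, Foxs1 and Foxm1, 3 of the 15 forkhead genes that reached 5 RPKM (20.0%), were higher in bone marrow, against 9.51% of all genes. None was higher in heart, against 7.56% of all genes, and 12 were neither. With the floor lowered to 1 RPKM, Foxq1 and Foxf1 joined them, so that 5 of 19 (26.3%) were higher in bone marrow and 0 in heart, against 9.26% and 7.78% of all genes. The median log2 ratio of the 19 was -0.21, beside -0.11 for all 11355 genes at or above 1 RPKM. Abundant genes as a whole lay slightly toward bone marrow, with a median log2 ratio of -0.14 over the 6049 genes that reached 5 RPKM in each library. Among all genes 728 were higher in bone marrow and 579 in heart, and after scaling by the median ratio the numbers were 583 and 704, while the forkhead counts stayed at 3 and 0. Relative to that median, 8 of the 19 lay above and 11 below.

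**Figure D2:**
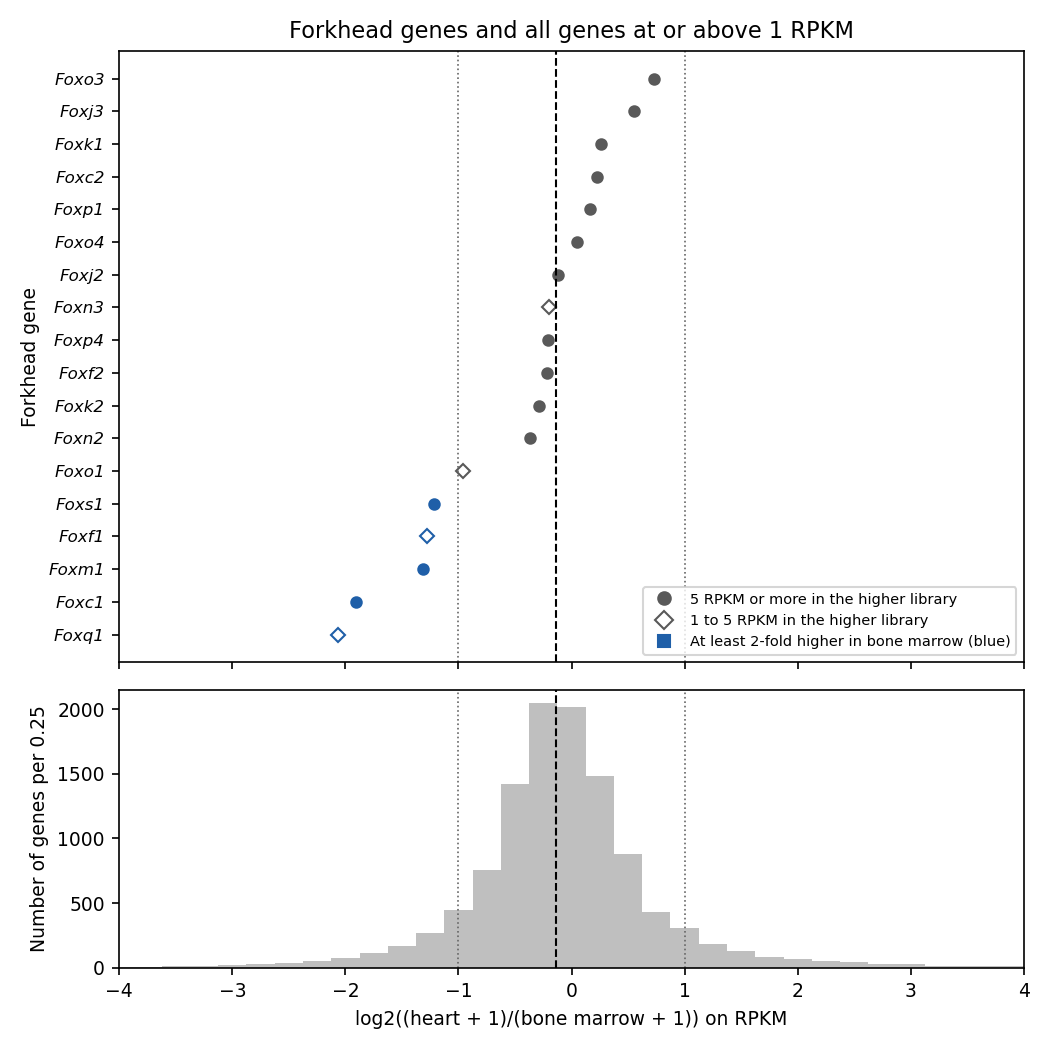
Upper panel, the log2 ratio of heart over bone marrow for 18 of the 19 forkhead genes at or above 1 RPKM (filled circles, 5 RPKM or more in the higher library; open diamonds, 1 to 5 RPKM; blue, at least 2-fold higher in bone marrow). Lower panel, the same ratio for all 11355 genes at or above 1 RPKM, drawn from -4 to 4; dotted lines mark 2-fold, and the dashed line marks -0.14, the median of the 6049 genes that reached 5 RPKM in each library. The 5 blue genes lie left of the 2-fold line and no forkhead gene lies right of it.

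The order of the levels differed at the top. In bone marrow Foxc1 (31.5 RPKM, exact 95% Poisson interval 30.8 to 32.3) and Foxs1 (30.4, 29.1 to 31.7) led, and their order could not be told from counting error. Foxk2 (16.9) and Foxo3 (11.6) came after them. In heart, among the genes described here, the order was Foxo3 (19.8), Foxk2 (13.7), Foxs1 (12.5) and Foxp1 (11.0), each separated from the next by more than counting error. Of 18 neighbouring pairs in the bone marrow order, 7 were not separated by counting error, among them Foxf2, Foxp4 and Foxp1 at 9.87, 9.80 and 9.72 RPKM. In the heart order 4 of 16 pairs were not separated, for example Foxf2 and Foxp4 at 8.38 and 8.36 RPKM. These intervals cover reads only, which without molecular identifiers are not independent molecules.

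The sequences upstream of Foxc1, Foxo1 and Foxo3 are shown because Foxc1 had the largest difference among abundant members, and Foxo1 and Foxo3 are paralogues that differed in opposite directions. They are 190 bases each, from 250 to 61 bases before the RefSeq start site (GRCm38.p6), given 5′ to 3′ on the strand of the gene, and capitals mark GC boxes (GGGCGG) and CCAAT boxes (CCAAT) on either strand, so that CCGCCC and ATTGG are the same letters read from the other strand. The windows are chr13:31806396-31806585 (plus), chr3:52268087-52268276 (plus) and chr10:42276756-42276945 (minus).
Foxc1: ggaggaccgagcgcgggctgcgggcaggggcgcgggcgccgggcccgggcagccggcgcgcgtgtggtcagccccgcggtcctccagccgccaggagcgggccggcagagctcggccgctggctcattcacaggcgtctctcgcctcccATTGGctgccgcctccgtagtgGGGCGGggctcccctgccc
Foxo1: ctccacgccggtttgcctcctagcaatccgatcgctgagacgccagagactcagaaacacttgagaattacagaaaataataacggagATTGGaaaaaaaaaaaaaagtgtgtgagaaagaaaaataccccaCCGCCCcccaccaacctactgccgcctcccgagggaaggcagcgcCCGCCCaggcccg
Foxo3: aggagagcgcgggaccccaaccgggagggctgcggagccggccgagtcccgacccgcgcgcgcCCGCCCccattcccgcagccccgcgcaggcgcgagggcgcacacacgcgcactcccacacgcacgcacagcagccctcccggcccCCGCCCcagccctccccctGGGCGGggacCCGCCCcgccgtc

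The Foxc1 and Foxo3 windows were 79.5% and 81.6% G and C and held 25 and 28 CpG sites, and the Foxo1 window was 53.2% with 12. The median over all 32851 windows of this kind was 51.6% with 4 CpG sites, and over the 33 windows of the 28 forkhead genes in the table it was 61.6% with 12. The GC box occurred 4 times upstream of Foxo3, 2 times upstream of Foxo1 and 1 time upstream of Foxc1. It was in 21 of the 33 forkhead windows and in 22.8% of all windows. The CCAAT box occurred once each in the windows of Foxc1 and Foxo1, in 10 of the 33 forkhead windows and in 26.7% of all windows. The forkhead consensus GTAAACA, searched on both strands, was in none of the 3 windows, in 1 of the 33 forkhead windows and in 2.49% of all windows. These matches describe letters in a short stretch and not binding.

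FoxC genes held the largest difference among abundant members. Foxc1 (chromosome 13, 31806691 to 31810643, plus strand, GRCm38), a regulator of mesenchyme and of the marrow niche, stood at 31.5 RPKM (bone marrow) against 7.68 (heart), with 6730 and 1969 reads behind these levels. It was 4.11-fold higher in bone marrow, for a log2 ratio of -1.91, and the exact conditional 95% interval, here called the counting interval, was 3.90 to 4.32. Its rank among all genes went from 1506 in bone marrow to 5261 in heart. Its paralogue Foxc2 (chromosome 8, 121116171 to 121118895, plus strand), known for lymphatic valves and vertebral mesenchyme, stood at 7.92 RPKM (bone marrow) against 9.44 (heart), for a log2 ratio of 0.23. In bone marrow Foxc1 was therefore far above Foxc2, while in heart Foxc2 was the higher of the pair. FoxC genes made up 19.9% of the summed forkhead RPKM in bone marrow and 10.7% in heart.

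FoxF genes also differed from each other. Foxf1 (chromosome 8, 121084386 to 121088144, plus strand), a factor of lateral mesoderm and lung mesenchyme, stood at 1.79 RPKM (bone marrow) against 0.147 (heart), with 233 and 23 reads behind these levels. Bone marrow was 12.2-fold (counting interval 7.92 to 19.6) above heart, although its level was low in both. Foxf2 (chromosome 13, 31625816 to 31631403, plus strand), a factor of gut and vascular mesenchyme, stood at 9.87 RPKM (bone marrow) against 8.38 (heart), for a log2 ratio of -0.21 that lies close to the median of abundant genes. Foxf2 was the higher of the pair in both libraries, and in heart the FoxF signal was almost wholly Foxf2.

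Foxq1 and Foxs1 are each the only member of their letter. Foxq1 (chromosome 13, 31558324 to 31560976, plus strand), the gene of the satin hair mutant, stood at 4.30 RPKM (bone marrow) against 0.267 (heart), with 616 and 46 reads behind these levels. Bone marrow was 16.1-fold (counting interval 11.9 to 22.2) above heart, and the log2 ratio of -2.06 was the lowest of the family. Foxs1 (chromosome 2, 152931898 to 152933208, minus strand), known from neural crest derivatives and from cells around vessels, stood at 30.4 RPKM (bone marrow) against 12.5 (heart). Bone marrow was 2.43-fold (counting interval 2.26 to 2.62) above heart, for a log2 ratio of -1.22.

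Several members lie beside each other in the genome, and some neighbours differed while others were alike. On chromosome 13 Foxq1, Foxf2 and Foxc1 lie in this order, with 64.8 kb between the former pair and 175 kb between Foxf2 and Foxc1. The outer genes were lower in heart, at log2 ratios of -2.06 and -1.91, and Foxf2 between them had -0.21. Of the rows without a forkhead name within 100 kb of this cluster, chosen for description after their values were seen, A530084C06Rik and Gmds were also lower in heart. Gmds, which encodes an enzyme of fucose synthesis and lies 8936 bases beyond Foxc1, stood at 6.64 RPKM (bone marrow) against 2.22 (heart), for a log2 ratio of -1.25. A530084C06Rik lies on the opposite strand to Foxq1, shares 1010 exonic bases with it, and stood at 1.44 RPKM (bone marrow) against 0.0241 (heart). Whether strand was used in counting is not given in the sources used here, and reads in the shared bases cannot be told apart.

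On chromosome 8 the cluster of Foxf1, Foxc2 and Foxl1 was also uneven. Foxf1 lies 28.0 kb from Foxc2, and Foxl1 (121127940 to 121130644, plus strand), a factor of gut mesenchyme, lies 9.04 kb further on. Foxl1 stood at 0.240 RPKM (bone marrow) against 0.450 (heart), with 35 and 79 reads behind these levels. Foxf1 was thus lower in heart, while Foxc2 and Foxl1, the closest pair, both had log2 ratios of 0.23. The gene Mthfsd between Foxf1 and Foxc2 had a log2 ratio of -0.10, and the long noncoding RNA Fendrr, which starts beside Foxf1 on the opposite strand, stood at 0.0111 RPKM (bone marrow) against 0.0278 (heart).

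**Figure D3:**
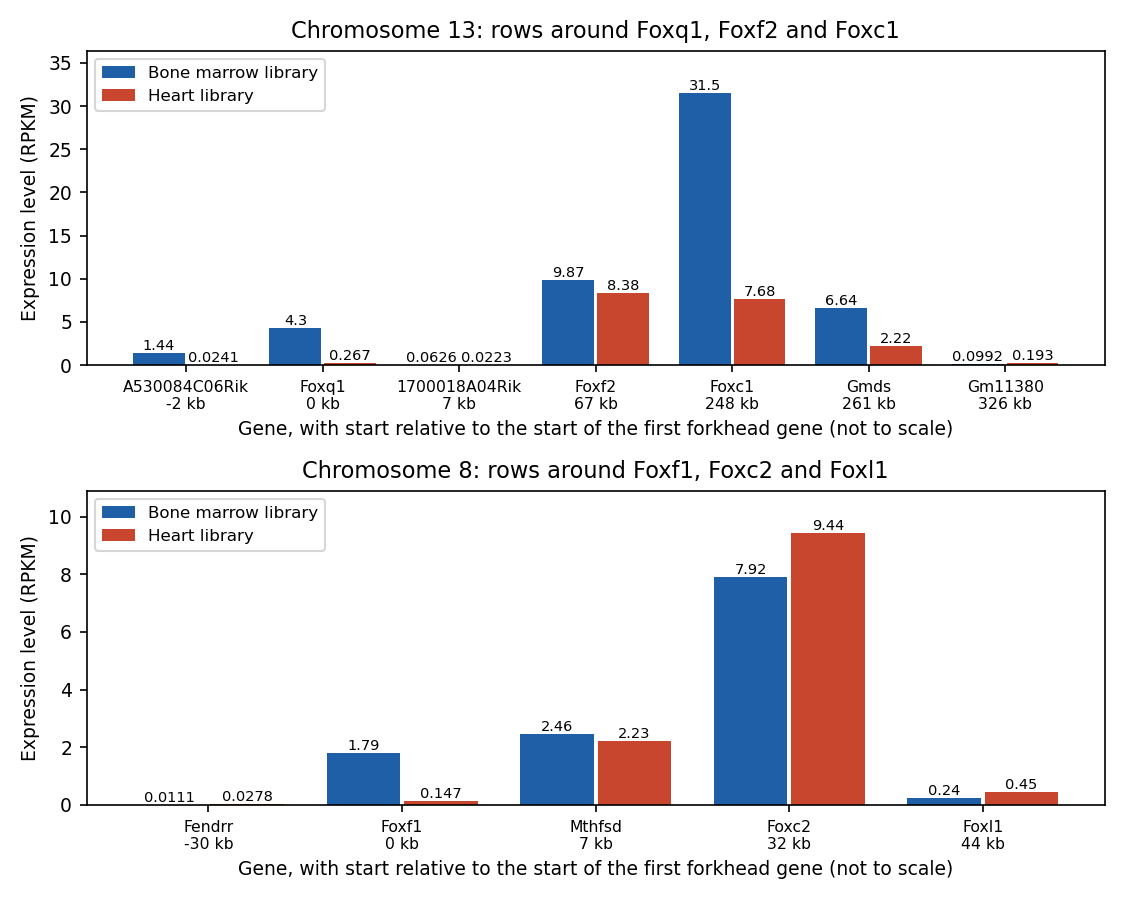
Expression level (RPKM) in bone marrow (blue) and heart (red), 1 library each, of the rows at or above 0.02 RPKM in and around the forkhead gene clusters of chromosome 13 (top) and chromosome 8 (bottom), in genome order, with the distance of each start from that of the first forkhead gene. Gm20388, a gene model spanning the whole chromosome 8 cluster, is left out. Foxq1, Foxc1, Gmds and A530084C06Rik were lower in heart, while Foxf2 stood at 9.87 and 8.38 RPKM; Foxf1 was lower in heart and Foxc2 was not.

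FoxO genes differed in direction. Foxo3 (chromosome 10, 42181841 to 42276755, minus strand), known for stress resistance and quiescence, stood at 11.6 RPKM (bone marrow) against 19.8 (heart), with 4724 and 9707 reads behind these levels. Heart was 1.71-fold (1.65 to 1.77) above bone marrow, and the log2 ratio of 0.73 was the highest of the family. Foxo1 (chromosome 3, 52268336 to 52353221, plus strand), a mediator of insulin responses, went the other way, at 4.71 RPKM (bone marrow) against 1.93 (heart), 2.44-fold higher in bone marrow with a counting interval of 2.27 to 2.63. With the pseudocount of 1 RPKM its log2 ratio was -0.96, just inside the 2-fold line, and its 4.71 RPKM was also under the 5 RPKM floor. Foxs1 at -1.22 was the nearest member beyond that line. Foxo4 on the X chromosome differed little, at 6.50 and 6.74 RPKM, with a ratio of 1.04 and an interval of 0.961 to 1.12. Foxo6 stood at 0.0496 and 0.0707 RPKM. The gap between Foxo3 and Foxo1 was thus wider in heart, and the FoxO share of summed forkhead RPKM was 11.5% in bone marrow and 17.9% in heart.

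Foxm1, the mitotic member, was the remaining gene counted as higher in bone marrow. Foxm1 (chromosome 6, 128362967 to 128376146, plus strand) stood at 6.49 RPKM (bone marrow) against 2.01 (heart), with 2016 and 750 reads behind these levels. Bone marrow was 3.23-fold (counting interval 2.97 to 3.52) above heart, and the log2 ratio of -1.32 became -0.71 with a pseudocount of 5 RPKM, which ends the call. Of 24 genes of its MuvB partner complex and of its targets, 18 reached 5 RPKM, and 13 were at least 2-fold higher on the bone marrow side, 0 on the heart side and 5 were neither, where the shares over all genes were 9.51% and 7.56%. The median log2 ratio of the 24, all at or above 1 RPKM, was -1.46, beside -0.11 for all genes at that level. Kif20a, a mitotic kinesin gene, had -2.13, the topoisomerase gene Top2a -1.79, the anaphase activator gene Cdc20 -1.78 and the mitotic kinase gene Cdk1 -1.77. The 5 genes of the MuvB core lay within 2-fold, with log2 ratios of -0.36 for Lin9, 0.16 for Lin37, -0.45 for Lin52, -0.48 for Lin54 and 0.06 for Rbbp4. Of these, Lin9 and Lin54 were under the 5 RPKM floor. Mybl2, also on the partner side and under that floor, stood at 3.01 RPKM (bone marrow) against 0.519 (heart), for a log2 ratio of -1.40. The phosphatase gene Cdc25b at -0.04 and the Cdk-binding gene Cks1b at -0.51, both on the target side of the list, were neither. Fewer dividing cells and less RNA per dividing cell cannot be told apart in a bulk library.

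Genes around FoxO factors were counted in both directions. Of 18 upstream regulators, 17 reached 5 RPKM, with 2 higher in heart, 1 higher in bone marrow and 14 neither, so that 3 of 17 were counted in either direction, near the 17.1% of all genes. Pik3r1, which encodes a regulatory subunit of phosphoinositide 3-kinase, had a log2 ratio of 1.07, and the insulin receptor substrate gene Irs1 had -1.43. Of 19 target genes, 16 reached 5 RPKM, with 7 higher in heart, 2 higher in bone marrow and 7 neither, against 7.56% and 9.51% of all genes. Their median log2 ratio was 0.68 over 18 members at or above 1 RPKM, beside -0.11 for all genes at that level. The thioredoxin-binding protein gene Txnip stood at 82.1 RPKM (heart) against 2.25 (bone marrow), the sestrin gene Sesn3 at 26.7 and 5.65, the transcription factor gene Klf15 at 5.58 and 1.17 and the cyclin gene Ccng2 at 12.9 and 3.86. Pdk4, which encodes a kinase that turns off pyruvate oxidation, went the other way at 62.4 RPKM (bone marrow) against 0.751 (heart), and Cited2, a transcriptional coregulator gene, stood at 50.1 and 12.6. More members of this list were thus counted as higher in heart, 7 against 2, with Txnip and Pdk4 far from equal in opposite directions.

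For partners of the other subfamilies few genes were counted, which is also the case for all genes, of which 17.1% were counted in either direction. Of 15 Hedgehog pathway genes, which act upstream of FoxF and FoxL factors, 6 reached 5 RPKM and all were neither, the ligand gene Shh was listed at 0 in both libraries, and the target gene Gli1 stood at 0.586 RPKM (bone marrow) against 0.118 (heart). Of 9 marrow stroma genes linked to FoxC1, 4 reached 5 RPKM and only Pdgfra was 2-fold apart, at 27.6 RPKM (heart) against 11.6 (bone marrow). Cxcl12, the niche chemokine gene, stood at 103 RPKM (bone marrow) against 107 (heart), and the leptin receptor gene Lepr, a marker of marrow stroma, at 0.0552 and 0.0262. Ebf1 stood at 5.42 RPKM (bone marrow) against 2.99 (heart) and Ebf3 at 3.51 and 1.44. The median log2 ratio of the 6 genes of this list at or above 1 RPKM was 0.06. Whether these levels are linked to the 4.11-fold difference of Foxc1 was not tested. Of 13 genes of the BAP1 and Sin3 complexes that bind FoxK proteins, 11 reached 5 RPKM and 1 was higher in heart, the glycosyltransferase gene Ogt (log2 ratio 1.06). Of 11 NuRD and CtBP corepressor genes used by FoxP factors, 10 reached 5 RPKM and 0 were 2-fold apart.

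**Figure D4:**
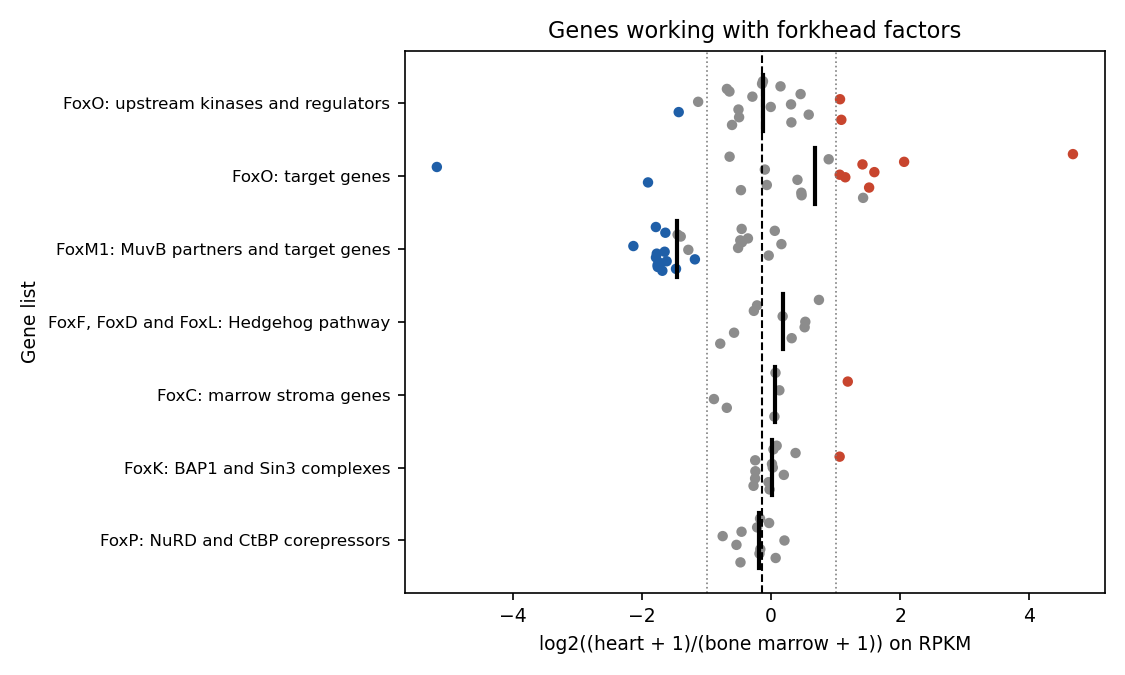
The log2 ratio of heart over bone marrow for genes at or above 1 RPKM in either library in 7 lists of genes that work with forkhead factors. Each point is a gene (blue, at least 2-fold higher in bone marrow; red, in heart; grey, neither or under 5 RPKM), black bars are list medians, dotted lines mark 2-fold and the dashed line marks -0.14, the median of the 6049 genes that reached 5 RPKM in each library. The FoxM1 list lies left, with a median of -1.46, and the FoxO targets are spread, with a median of 0.68.

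The 8 members of the FoxK, FoxP, FoxJ and FoxN subfamilies that reached 1 RPKM were present in both cultures. Of these, Foxj3 differed the most. Foxk1 and Foxk2, repressors that act on autophagy and metabolic genes, had log2 ratios of 0.26 and -0.29, with Foxk2 at 16.9 RPKM (bone marrow) against 13.7 (heart) and Foxk1 at 5.82 and 7.18. Foxp1, a repressor needed in heart development, stood at 9.72 and 10.99 RPKM and its paralogue Foxp4 at 9.80 and 8.36. In both the FoxK and the FoxP pair, 1 member was thus higher and the other lower in heart. However, the log2 ratio of -0.21 for Foxp4 lies close to the median of abundant genes, -0.14. Foxj2 stood at 8.56 and 7.79 RPKM. Foxj3 stood at 4.07 RPKM (bone marrow) against 6.45 (heart), for a log2 ratio of 0.56. On the strand opposite Foxj3 the row AA415398 overlaps its span but shares 0 exonic bases with it by the gene models. It stood at 0.832 and 1.60 RPKM. Foxn2 stood at 6.81 and 5.05 RPKM, and Foxn3, a checkpoint factor, at 4.79 and 4.03. All 8 thus lay within 2-fold between the libraries.

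Within the family, the structure of the genes went with the size of the difference. Among the 19 genes, 5 have a single exon, among them Foxc1, Foxc2, Foxq1 and Foxs1, and 14 have several. The median size of the log2 ratio, whatever its sign, was 1.22 for the 5, from 0.23 to 2.06, and 0.28 for the 14, from 0.05 to 1.32. By the rule with a floor of 1 RPKM, 3 of the 5 and 2 of the 14 were higher in bone marrow, against 9.26% of all genes. All genes were not split by exon number, so whether single-exon genes differ more in general was not tested. This split was made after the values were seen, rests on few genes and is a description. Of the members with a single exon, 5 of 14 reached 1 RPKM, and of those with several, 14 of 30.

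Among the 18 genes detected below 1 RPKM, 5 had more than 20 reads in a library. The other 13 had at most 12 by the gene lengths used here, with the count of Foxp3 a minimum. Foxd1, known from stromal progenitors of the kidney, stood at 0.857 RPKM (bone marrow) against 0.00626 (heart), from 114 reads and 1 read, a ratio of 137 with a counting interval of 24.1 to 5456. Foxa1, an endoderm factor, stood at 0.221 and 0.00484 RPKM, from at least 38 reads and 1 read. Foxp2, known for its part in speech and in lung development, went the other way at 0.00850 RPKM (bone marrow) against 0.221 (heart), with at least 7 and 219 reads behind these levels, a ratio of 26.0 with an interval of 12.4 to 65.5. Foxd2 stood at 0.364 and 0.660 RPKM, and Foxd2os, a noncoding RNA that begins 384 bases from it on the opposite strand, at 1.22 and 1.66. Large ratios thus occurred in both directions at these low levels, where 1 RPKM was not reached.

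The 5 epithelial markers also summed to more in bone marrow, 2.80 RPKM against 0.0346 in heart. Cdh1, Krt14 and Krt19 stood at 0.623, 1.22 and 0.908 RPKM in bone marrow, while Epcam was listed at 0 there and Krt14 at 0 in heart. With 1 library per tissue, these markers share their direction with every gene higher in bone marrow. Foxa1, Foxd1, Foxq1 and Foxf1 are among these, as are Foxc1, Foxs1 and Foxm1. The part of epithelial cells in any of these values was not tested.

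The other 13 genes detected below 1 RPKM were Foxa2, Foxa3, Foxb1, Foxd3, Foxe1, Foxe3, Foxi1, Foxi2, Foxj1, Foxl2, Foxn1, Foxo6 and Foxp3. Foxj1 had 9 reads (bone marrow) and 6 reads (heart), and all 13 matched of the 14 motile cilia genes listed with it were below 1 RPKM in both libraries. Foxp3 had 0 reads (bone marrow) and at least 6 reads (heart). On the opposite strand it overlaps the rows Ccdc22, at 6.82 and 5.56 RPKM, and Gm36995, at 0.579 and 0.982 RPKM. The 4 T cell markers summed to 0.0280 RPKM (bone marrow) against 0.0305 (heart). Foxb2, Foxd4, Foxh1, Foxi3, Foxn4, Foxr1 and Foxr2 were listed at 0 in both. For the 6 of these with a known length, 3 reads, the upper limit that a count of 0 allows, would be at most 0.0434 RPKM.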

How the data were processed

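Total RNA of cultured cells at passage 10 was made into 1 Illumina library per tissue, per the labels' protocols. The authors deposited RPKM, per the file headers. The tools for alignment and counting, and any strand setting, were not given in the sources used here. Per the submitters' processing notes the build was mm8, yet 45149 of 49585 rows (91.1%) match a GENCODE M21 model in position, and positions were therefore read as GRCm38.

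Read totals were recovered as the numbers that make RPKM times exon length whole; 86.2% of genes with a matching model and above 0 on both sides came out whole in both libraries within 0.02 reads. Of the 44 members, 34 have the coordinates of the model of their name. Length was the span of the row for 6 single-exon genes, and for Foxa1, Foxn3, Foxp2 and Foxp3 the smallest length that gives whole reads, so their reads are minimum values. Ratios have exact conditional (Clopper-Pearson) 95% intervals, which cover counting error only. With 1 library per tissue no p-value was computed.

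Log2 ratios used a pseudocount of 1 RPKM, which understates differences of low genes. Of rows sharing a symbol, that of highest mean level was kept. Members that reached 1 RPKM are named, up to 4 genes per direction of each list, and rows at 0.5 RPKM or more that are noncoding within 10 kb of a member or antisense and overlapping one. Some genes that this rule takes are counted but not reported here. Members and lists were chosen with earlier results of these data known. Mybl2, Lin9, Lin37, Lin52, Lin54, Rbbp4, Cdc25b, Cks1b, Shh, Gli1, Cxcl12, Lepr, Ebf1, Ebf3, Gmds, Mthfsd and Fendrr fall outside the naming rule. Like the markers named, they were picked with their values in view. Upstream sequences are from RefSeq (GRCm38.p6), limited to bases outside annotated exons. The steps were tested on simulated data and used Python 3.11.15 with scipy 1.17.1, numpy 2.4.6, matplotlib 3.10.9 and pandas 2.3.3.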

Additional observations from a re-analysis of the deposited data

How the results depend on the processing

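Alternatives were pseudocounts of 0.1 and 5 RPKM, floors of 1, 20 and no RPKM, a 4-fold threshold, scaling by upper quartile, median ratio or RPKM sum, and summed rows. No forkhead gene was counted as higher in heart under any of them. The count higher in bone marrow was 3, and 5 with a floor of 1 RPKM or none, 2 with a floor of 20 RPKM or a pseudocount of 5, which drop Foxm1, and 0 with a 4-fold threshold. The median log2 ratio of the forkhead genes was -0.080 with scaling by the median ratio, and -0.0089 with all members above 0 kept. Of the 19 genes, 18 kept the sign of their log2 ratio under all 6 settings of scaling, pseudocount and rows, and Foxj2 went from -0.12 to 0.01 with scaling by the median ratio. Scaling by the median ratio raises log2 ratios of abundant genes by 0.15 and turned the median of the FoxO regulators from -0.13 to 0.0043. Over all genes the counts higher in bone marrow and in heart were 728 and 579, against 583 and 704 with scaling by the median ratio, 424 and 383 with a pseudocount of 5, 1052 and 883 with a floor of 1 RPKM or none, 315 and 263 with a floor of 20 RPKM, and 229 and 257 with a 4-fold threshold. The cause was not tested. No paired analysis was possible because each tissue has 1 library. Of the members detected below 1 RPKM, 13 had at most 12 reads by the gene lengths used here, and depth limits their ratios.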
